A study of Mus musculus with 20 samples.

Results

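Calcium- and sugar-binding proteins of the S100, galectin and annexin families were followed by their mRNA in granulosa cells (GCs) of mice, namely the S100 genes S100a4, S100a6, S100a10 and S100a11, the galectins Lgals1 and Lgals3, and the annexins Anxa1, Anxa2 and Anxa5. These were 9 of the 55487 genes in the count tables, matched by gene symbol. Of these, S100a4, S100a11 and Lgals3 had been chosen by their measured difference between the mouse lines in these data. The line differences of these 3 genes, and their values within a single line or stage, are therefore given as a description without a test. The mean difference between the stages over both lines does not depend on the line difference in this balanced design and was tested for all 9 genes, while the other 6 genes were tested throughout. Of these 6, Anxa5 had been listed by the paper as stronger expressed in FL1 mice in estrus in the same samples. Its line and interaction tests are therefore not independent of that earlier result.

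GCs line the antral follicle, feed the oocyte and make its steroids. The mural GCs studied here came from the line FL1, bred in Dummerstorf for large litters and high litter weight, and from the unselected control line (ctrl). Neither line carries a transgene or a knockout. For each line 5 mice were sampled in estrus and 5 others in diestrus, staged by vaginal smear at the age of 77 ± 5 days. From each mouse 7 to 10 of the largest follicles were opened with care to leave the oocyte and its cumulus behind, so each sample is a pool of follicles from 1 mouse. The labels name no treatment for any group. The libraries hold tags from the 3′ ends of transcripts, and between 5446576 and 8257041 reads per mouse were assigned to genes. Values are given in counts per 1000000 reads (CPM) after TMM scaling. Because 1 tag is made per transcript whatever its length, CPM levels of different genes can be set side by side. In tissue of mixed cells, fewer cells of a type and less RNA per cell cannot be told apart.

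S100 proteins are small EF-hand proteins that work as dimers. On binding calcium most of them open a surface that holds a partner. S100a4 binds non-muscle myosin, S100a6 binds the calcyclin-binding protein, S100a11 binds Anxa1, and S100a10, which has lost the ability to bind calcium, forms a stable complex with Anxa2 at the plasma membrane. Galectins bind β-galactosides on cell-surface glycoproteins. Lgals1 acts as a dimer, and Lgals3 joins a sugar-binding domain to a flexible tail by which it forms lattices. Annexins attach to acidic phospholipids when calcium rises, Anxa2 in membrane traffic and plasmin formation, Anxa1 in resolving inflammation and Anxa5 on exposed phosphatidylserine of dying cells. Several of these genes are abundant in macrophages, epithelia and stroma as well as in GCs, so marker genes of those cells are given with the results.

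All 4 S100 genes lie on chromosome 3 of GRCm38. S100a4 (ENSMUSG00000001020, chr3:90603771-90606045, + strand) and S100a6 (ENSMUSG00000001025, chr3:90612882-90624181, + strand) lie close together, with S100a5 between them. S100a11 (ENSMUSG00000027907, chr3:93520488-93526287, + strand) and S100a10 (ENSMUSG00000041959, chr3:93555080-93564643, + strand) lie further along the chromosome. Anxa5 (ENSMUSG00000027712, chr3:36448923-36475894, − strand) is on the same chromosome. Lgals1 (ENSMUSG00000068220) lies at chr15:78926725-78930465 (+), Lgals3 (ENSMUSG00000050335) at chr14:47367751-47386160 (+), Anxa1 (ENSMUSG00000024659) at chr19:20373428-20390944 (−) and Anxa2 (ENSMUSG00000032231) at chr9:69453620-69491795 (+). The 3′ end of S100a4 is shared by the predicted readthrough gene Gm42674, which held 0 reads. The count tables keep ambiguous reads apart, but the counter's rules are not given in the sources used here, so whether S100a4 tags were left out for this overlap is not known. S100a11 has 5 near-identical processed pseudogenes, which together held 5 reads against 9209 for S100a11.

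The regulatory sequence just before the start site is shown for the 3 genes chosen by the line difference and for the genes called lower in diestrus, so that their motifs can be compared. Promoters were taken from RefSeq (GRCm38.p6), where 7 of the 9 genes were found and S100a10 and Lgals1 were not. Each line gives the 250 bases before the RefSeq start, without bases that lie in an annotated exon. Capitals mark matches to motifs searched on both strands.
S100a4, chr3:90603520-90603769, + strand: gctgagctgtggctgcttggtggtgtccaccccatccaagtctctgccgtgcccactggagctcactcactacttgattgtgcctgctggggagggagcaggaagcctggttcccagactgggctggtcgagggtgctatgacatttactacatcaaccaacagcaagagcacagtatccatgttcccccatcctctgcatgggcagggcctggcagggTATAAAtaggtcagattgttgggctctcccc
S100a6, chr3:90612644-90612881, + strand: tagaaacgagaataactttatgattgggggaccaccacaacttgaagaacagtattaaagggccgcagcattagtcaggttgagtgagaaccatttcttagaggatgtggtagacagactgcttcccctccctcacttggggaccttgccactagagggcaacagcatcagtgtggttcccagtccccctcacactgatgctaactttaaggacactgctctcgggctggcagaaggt
S100a11, chr3:93520246-93520487, + strand: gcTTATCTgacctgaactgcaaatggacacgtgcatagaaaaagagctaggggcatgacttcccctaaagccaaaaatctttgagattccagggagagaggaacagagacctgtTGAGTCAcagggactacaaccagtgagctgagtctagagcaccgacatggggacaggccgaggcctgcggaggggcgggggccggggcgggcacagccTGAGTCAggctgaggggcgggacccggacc
Lgals3, chr14:47373610-47373812, + strand: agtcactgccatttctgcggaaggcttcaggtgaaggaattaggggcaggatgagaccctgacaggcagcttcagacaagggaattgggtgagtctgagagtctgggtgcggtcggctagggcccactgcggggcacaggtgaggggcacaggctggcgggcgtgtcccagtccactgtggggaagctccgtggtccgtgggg
Anxa2, chr9:69453433-69453619, + strand: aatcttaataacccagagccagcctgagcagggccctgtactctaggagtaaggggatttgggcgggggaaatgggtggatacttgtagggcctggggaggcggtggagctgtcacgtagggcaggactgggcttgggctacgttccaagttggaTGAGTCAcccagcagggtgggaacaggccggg

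The TATA box letters TATAAA stood 31 bases before the start of S100a4. The AP-1 letters TGANTCA, bound by Fos and Jun proteins, occurred at 136 and at 38 bases before the start of S100a11 and at 95 bases before that of Anxa2. Of all 32851 promoters 6.75% held the AP-1 letters and 12.4% the TATA letters within 250 bases. The GATA letters AGATAA (9.99% of promoters) occurred once in S100a11, as TTATCT on the strand shown. Neither the cAMP response element TGACGTCA (1.55% of promoters) nor the NR5A letters AAGGTCA (4.08%), read by Nr5a1 and Nr5a2, matched in any of the 7 promoters. No searched motif matched in S100a6, Lgals3 or Anxa5. TATA letters also stood 32 bases before Anxa1 and, in an exon stretch not printed, 17 bases before Anxa2.

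Marker genes of GCs were present in every group, with a summed level of 6462 to 17410 CPM over 10 markers. Markers of other cells and luteal markers varied between the groups. The 12 macrophage markers summed to 27.5 to 72.9 CPM in ctrl mice in estrus, 62.8 to 139.7 CPM in FL1 mice in estrus, 10.7 to 22.9 CPM in ctrl mice in diestrus and 19.1 to 100.7 CPM in FL1 mice in diestrus. No macrophage marker was at 0 throughout a group, but Cd68 did not exceed 0.155 CPM in ctrl mice in estrus or 6.99 CPM in any mouse. The 7 luteal markers, such as Star and Lhcgr, summed to 400.9 to 1776 CPM in ctrl and 4538 to 9774 CPM in FL1 mice in estrus, and to 607 to 1344 CPM and 1139 to 5071 CPM in diestrus. The paper treats Star, Lhcgr and Prlr as genes of GCs, so the luteal markers need not mark cells other than GCs. It had listed Star, Lhcgr, Prlr, Ptgfr, Akr1c18 and Sfrp4 as stronger expressed in FL1 mice in these data. Line values of the luteal markers are therefore a description. The 6 markers of the ovarian surface epithelium summed to 3.21 to 34.4 CPM in ctrl and 30.1 to 75.3 CPM in FL1 mice in estrus. Markers of theca and stroma ranged from 193 to 2266 CPM and endothelial markers from 18.7 to 151 CPM over all mice. All 7 neutrophil markers were at 0 in ctrl mice in estrus, and their sum never exceeded 5.05 CPM. The oocyte was to be left behind, but oocyte RNA was measured in every mouse. Its 6 markers, none of them at 0 throughout a group, had sums of 50.2 to 469 CPM (median 149.8) in ctrl and 163 to 459 CPM (median 307) in FL1 mice in estrus, and of 47.4 to 396 CPM (median 138) and 61.2 to 546 CPM (median 338) in diestrus. Some libraries stood apart for the 9 genes. FL1 diestrus replicate 1 had the highest value of its group for 7 of them, and FL1 diestrus replicate 2 for the other 2. Ctrl estrus replicate 1 had the lowest value of its group for 7.

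Among the S100 genes, S100a6 was the most abundant at 416 CPM on average over the 20 mice, followed by S100a10 (217 CPM), S100a11 (69.5 CPM) and S100a4 (34.2 CPM). S100a4, best known for the motility of myeloid and mesenchymal cells, reached its highest levels in FL1 mice in estrus. Its values were 99.3, 59.7, 115.3, 175 and 44.8 CPM in FL1 mice in estrus and 10.3, 6.82, 17.1, 25.8 and 33.2 CPM in ctrl mice in estrus. The lowest FL1 mouse in estrus thus lay above the highest ctrl mouse. In diestrus ctrl mice had 7.85, 5.62, 1.87, 3.82 and 11.9 CPM, and FL1 mice had 29.0, 29.6, 3.56, 1.53 and 0.682 CPM. FL1 mice in diestrus split into 2 mice at about the level of estrus ctrl mice and 3 mice below every estrus mouse, the lowest of them with 4 reads.

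S100a6, or calcyclin, is known from proliferating cells. It was measured at 888, 1024, 1069, 583 and 862 CPM in FL1 mice in estrus and at 90.2, 172, 383, 517 and 547 CPM in ctrl mice in estrus, without overlap. In diestrus ctrl mice had 122, 141, 152, 100.3 and 254 CPM. FL1 mice in diestrus had 762, 369, 80.2, 82.1 and 131 CPM, so that replicate 1 remained within the range of FL1 mice in estrus and the other 4 lay below it.

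S100a11 had similar levels in both stages. It was expressed at 121, 106.5, 119.7, 87.2 and 100.7 CPM in FL1 mice and at 32.2, 18.8, 41.2, 47.7 and 35.8 CPM in ctrl mice in estrus. In diestrus the values were 136, 80.1, 67.1, 52.8 and 100.98 CPM in FL1 mice and 47.1, 30.9, 35.9, 67.1 and 61.4 CPM in ctrl mice. FL1 mice lay above ctrl mice in estrus without overlap, while the 2 lines overlapped in diestrus. The group means of S100a10, the Anxa2 partner, were 197 ± 55.3 CPM (SD, n = 5) in ctrl and 296 ± 41.2 CPM in FL1 mice in estrus, and 167 ± 72.3 CPM and 209.6 ± 63.3 CPM in diestrus, and the ranges of neighboring groups overlapped.

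Lgals3 resembled S100a4 in estrus. FL1 mice had 45.2, 111.2, 94.5, 64.7 and 83.9 CPM, whereas ctrl mice in estrus had 2.91, 14.3, 12.3, 17.4 and 20.8 CPM. FL1 mice in diestrus had 45.4, 49.7, 6.32, 16.4 and 14.5 CPM and ctrl mice had 16.2, 8.97, 5.60, 8.54 and 7.89 CPM. The lines did not overlap in estrus, and 2 of the 5 FL1 mice in diestrus were still at the level of the lowest FL1 mouse in estrus. Lgals1 was expressed at 237, 238, 309, 345 and 248 CPM in FL1 mice and 88.7, 91.5, 157, 253 and 230.0 CPM in ctrl mice in estrus. In diestrus it had 183, 93.8, 62.9, 35.4 and 71.0 CPM in FL1 mice, all below every FL1 mouse in estrus, and 28.2, 94.2, 132, 38.5 and 45.9 CPM in ctrl mice.

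Anxa2 was the most abundant annexin of the 3 with 300.1 CPM on average, ahead of Anxa5 (177 CPM) and Anxa1 (16.7 CPM). Anxa2 values in estrus were 206, 354, 346, 418 and 399 CPM in ctrl mice and 419.8, 849, 335, 318 and 350.0 CPM in FL1 mice. In diestrus they were 178, 250.3, 199.9, 313 and 177 CPM in ctrl mice and 357, 209, 97.1, 129 and 97.1 CPM in FL1 mice. Lines overlapped in both stages, and 3 of the 5 FL1 mice in diestrus lay below all other mice. Anxa5 was expressed at 87.9, 107.4, 154, 101.5 and 178 CPM in ctrl mice and at 275, 643, 209.7, 196 and 190.3 CPM in FL1 mice in estrus, without overlap. In diestrus it ranged from 81.3 to 151 CPM in ctrl mice and from 95.6 to 218 CPM in FL1 mice. Anxa1 was low and scattered widely, from 7.72 to 28.6 CPM in ctrl and 4.91 to 36.1 CPM in FL1 mice in estrus, and from 5.22 to 18.7 CPM and 0.170 to 23.9 CPM in diestrus, the lowest value resting on 1 read.

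**Figure D1:**
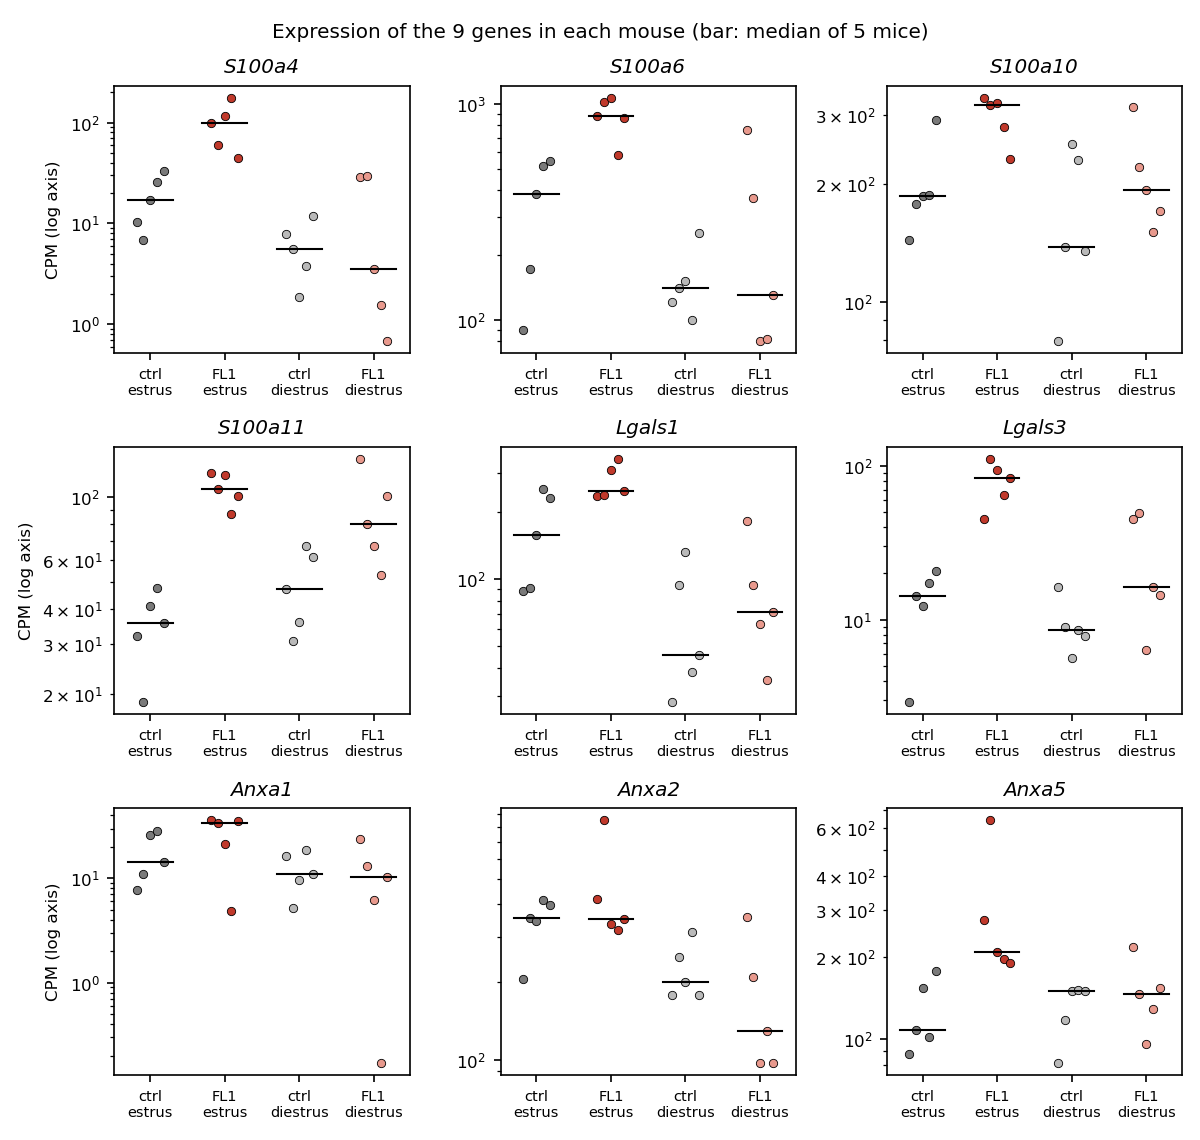
Level of each of the 9 genes in each mouse, in CPM on a log axis, with 1 point per mouse and a bar at the median of 5 mice per group. FL1 mice in estrus lie above all ctrl mice in estrus for S100a4, S100a6, S100a11, Lgals3 and Anxa5.

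FL1 was first compared with ctrl mice in estrus, the stage around ovulation. All 9 genes had a log2 fold change above 0, where 50.5% of the 13007 genes tested did, and their median was 1.26 against 0.01 over all genes. These values include the 3 genes chosen by the line difference. Among the other 6 genes, which include Anxa5, listed by the paper as higher, 6 were above 0, with a median of 0.67. For 5 of the 9 genes every FL1 mouse lay above every ctrl mouse, as it did for 1.85% of all genes, but 3 of these 5 are the genes chosen by the line difference. These 3 differed by a log2 fold change of 2.56 (SE 0.40) for Lgals3, 2.41 (SE 0.42) for S100a4 and 1.60 (SE 0.24) for S100a11, which correspond to 5.91-fold, 5.30-fold and 3.04-fold higher levels.

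None of the other 6 genes passed the test in estrus, where 0.769% of all genes were called. The quasi-likelihood test of edgeR with Benjamini-Hochberg (BH) adjustment over all genes called 0 of 6, with 4 of 6 at an unadjusted p under 0.05 (10.7% of all genes), whereas DESeq2 called 1 and limma-voom 1. S100a6 had a log2 fold change of 1.37 (95% interval 0.61 to 2.13) with an adjusted p of 0.0944 in edgeR, and 5 of 5 FL1 mice lay above every ctrl mouse. S100a6 was called in 2 of 8 alternatives to the edgeR fit other than leaving out a mouse, with adjusted p values from 2.81e-05 to 0.232. Anxa5 had 1.26 (0.60 to 1.93) with an adjusted p of 0.0726 in edgeR, likewise with 5 of 5 mice above. Anxa5 was called by DESeq2 (adjusted p = 0.0100), where the adjusted p over all alternatives to the edgeR fit, without those that leave out a mouse, ran from 0.000121 to 0.172. Without FL1 estrus replicate 4 the count rose to 1 of 6, Anxa5 being called by edgeR at an adjusted p of 0.0490. Without FL1 estrus replicate 2, which had the highest Anxa5 and Anxa2 values, the log2 fold change of Anxa5 was 0.79. Smaller differences were measured for Lgals1 at 0.75 (0.17 to 1.32), Anxa1 at 0.58 (−0.43 to 1.60), S100a10 at 0.58 (0.16 to 1.01) and Anxa2 at 0.40 (−0.16 to 0.96), with adjusted p values in edgeR of 0.274, 0.753, 0.242 and 0.663.

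Most macrophage, luteal and surface epithelium markers were above 0 in FL1 mice in estrus. Of the tested markers 6 of 8, 7 of 7 and 5 of 6 had a log2 fold change above 0, with medians of 0.94, 2.10 and 1.78. In these lists edgeR called 0, 4 and 0 markers higher (0.769% of all genes were called), the luteal values being a description. A marker low in ctrl mice could pass the filter on low counts through FL1 mice alone, which favors a value above 0. Krt19, at most 0.884 CPM in ctrl and at least 3.25 CPM in FL1 mice in estrus, was such a marker. Theca and stroma markers had 7 of 8 above 0 (median 0.43) and endothelial markers 5 of 6 (median 0.43). Oocyte markers had 4 of 6 above 0 (median 0.43), none of them called by edgeR. Their part in the line difference of the 9 genes was not tested.

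In diestrus the estimated line difference was lower in each of the 9 genes than in estrus. Of these, 7 had a log2 fold change above 0 (51.3% of 12886 genes tested), with a median of 0.40 against 0.01 over all genes. Without the 3 chosen genes 4 of 6 were above 0, with a median of 0.27. The lines overlapped in all 9 (1.59% of all genes did not overlap), and the test with edgeR and BH adjustment called 0 of the 6 tested genes (0.248% of all genes were called), 0 of 6 at an unadjusted p under 0.05 (5.56% of all genes) and 0 with DESeq2. Lgals3 had 1.49 (SE 0.52), S100a4 1.06 (SE 0.88) and S100a11 0.86 (SE 0.29). With limma-voom the direction of S100a4 turned, at −0.074. The log2 fold change of S100a6 was 0.89 (−0.19 to 1.98) and fell to 0.11 without FL1 diestrus replicate 1. Anxa2 had −0.32 (−1.01 to 0.37), Anxa1 −0.18 (−1.72 to 1.35), Anxa5 0.20 (−0.30 to 0.71), S100a10 0.34 (−0.28 to 0.95) and Lgals1 0.40 (−0.52 to 1.32). Lgals1 had −0.013 with limma-voom and −0.038 without FL1 diestrus replicate 1. Anxa1 had 0.010 without ctrl diestrus replicate 4 and 0.13 without FL1 diestrus replicate 4.

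Most markers of other cells, and all luteal markers, were above 0 in FL1 mice in diestrus as well. The luteal counts are again a description. Macrophage markers had 7 of 7 tested above 0 (median 1.45), endothelial markers 7 of 7 (median 1.46), luteal markers 7 of 7 (median 1.64, 1 called higher by edgeR), theca and stroma markers 7 of 8 (median 0.72) and oocyte markers 6 of 6 (median 0.59). Surface epithelium markers had 1 of 2 above 0 (median −0.25). Their part in the line values of the 9 genes was not tested.

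Averaged over both stages all 9 genes had a log2 fold change above 0 in FL1 mice (51.3% of all genes), 6 of them not chosen by it, with a median of 0.51 over these 6. Again 0 of the 6 tested genes were called by edgeR with BH adjustment (1.39% of 14938 genes were), with 4 of 6 at an unadjusted p under 0.05 (12% of all genes) and 1 called by DESeq2. S100a6 had 1.13 (0.43 to 1.83) with an adjusted p of 0.104 and Anxa5 had 0.73 (0.30 to 1.16) with an adjusted p of 0.0811 in edgeR. The value of Anxa2 was 0.035 (−0.42 to 0.49), a mean of estimates of 0.40 in estrus and −0.32 in diestrus. This interval does not bound the line difference within a stage. Macrophage markers were above 0 in 10 of 10 tested, with Lyz2 called (log2 fold change 2.09, adjusted p = 0.00289 in edgeR). Cd68 did not exceed 1.74 CPM in any ctrl mouse, so it passed the filter on low counts mainly through FL1 mice, which favors a value above 0. Luteal markers were called in 7 of 7, a description, since the paper had listed most of them as higher in FL1 mice. Oocyte markers were above 0 in 5 of 6 (median 0.39), with none called. Their part in the line values was not tested.

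Whether the line difference depended on the stage was tested by the interaction of line and stage. The estimate was below 0 for all 9 genes, while 50.3% of all genes were above 0, and the median was −0.75 against 0.0044 over all genes. Without the 3 genes chosen by the line difference it was −0.61 over 6 genes. The edgeR test with BH adjustment called 0 of the 6 tested genes and 0 of all 14938 (0%), with 1 of 6 and 4.75% of all genes at an unadjusted p under 0.05, and DESeq2 called 0 of 6. Anxa5 came nearest with −1.07 (−1.93 to −0.21), unadjusted p = 0.0165 and adjusted p = 0.982 in edgeR. The intervals of the other 5 tested genes included 0.

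The comparison of the stages over both lines was the only tested contrast with a call by edgeR among these genes. Here 4 of 9 were lower expressed in diestrus than in estrus after BH adjustment in edgeR, where 3.45% of all genes were called and 1.72% called lower. In total 8 of 9 were below 0, whereas 51.8% of all genes were above. The called genes were S100a4, S100a6, Lgals1 and Anxa2. Lgals1 fell by 1.45 on the log2 scale (95% interval −2.02 to −0.88, adjusted p = 0.00261), S100a4 fell by 2.26 (−3.25 to −1.26, adjusted p = 0.00711), Anxa2 fell by 0.99 (−1.45 to −0.52, adjusted p = 0.0109) and S100a6 fell by 1.39 (−2.10 to −0.69, adjusted p = 0.0197). In linear terms Lgals1 was at 0.366 and S100a4 at 0.209 of its estrus level, and S100a6 at 0.381 and Anxa2 at 0.504. Each of the 4 was called in 20 of 20 fits that left out 1 mouse. With robust estimation in edgeR S100a6 lost its call (adjusted p = 0.0869, with a range of 8.26e-06 to 0.0869 over its alternatives other than leaving out a mouse).

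The remaining 5 genes did not pass. Lgals3 had −1.06 (−1.73 to −0.38) with an adjusted p of 0.0757 in edgeR. It was called in 4 of 20 fits that left out 1 mouse, namely ctrl estrus replicate 1, ctrl diestrus replicate 1, FL1 diestrus replicate 1 or FL1 diestrus replicate 2. Anxa1 had −0.91 (−1.83 to 0.01), Anxa5 −0.49 (−0.92 to −0.06) and S100a10 −0.37 (−0.74 to 0.01), with adjusted p values of 0.326, 0.234 and 0.329 in edgeR. S100a11 stood at 0.085 (−0.30 to 0.47, adjusted p = 0.902 in edgeR). Differences between genes in their stage values were not tested.

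Marker genes moved with the stage too. In diestrus 8 of 10 macrophage, 7 of 8 theca and stroma, 7 of 7 endothelial, 6 of 6 surface epithelium and 5 of 7 luteal markers were below 0, of which 0, 1, 0, 0 and 2 were called lower by edgeR (1.72% of all genes were). Of the theca and stroma markers 1 was called higher. GC markers were above 0 in 7 of 10, with 4 called higher (3.45% of all genes were called in either direction). Their part in the fall of the 4 genes was not tested.

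Within ctrl mice 7 of the 9 genes were below 0 in diestrus, while 50.4% of all genes were above 0. The median was −0.53 against 0.0041 over all genes, and 0 of 6 tested genes were called by edgeR with BH adjustment (1.36% of all genes were), although 3 of 6 had an unadjusted p under 0.05 (11.8% of all genes) and DESeq2 called 1. Without ctrl estrus replicate 1 edgeR called 1 gene, S100a6. The log2 fold changes were −1.28 (−2.12 to −0.44) for Lgals1, −1.16 (−1.99 to −0.33) for S100a6 and −0.63 (−1.10 to −0.16) for Anxa2. Anxa5 was at 0.037 (−0.46 to 0.53) in ctrl mice.

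Within FL1 mice all 9 genes were below 0 in diestrus, with a median of −1.36, while 51.1% of all genes were above 0. Samples of the stages did not overlap for 2 of 9, S100a4 and Lgals1 (1.32% of all genes were lower without overlap). The test with edgeR and BH adjustment called 0 of 6 (0.221% of all genes were called), with 5 of 6 at an unadjusted p under 0.05 (9.48% of all genes) and 2 called by DESeq2. Lgals1 had −1.63 (−2.33 to −0.94) with an adjusted p of 0.0508 in edgeR. S100a6 had −1.64 (−2.68 to −0.59), Anxa2 −1.36 (−2.12 to −0.59) and Anxa5 −1.03 (−1.71 to −0.36). Without FL1 diestrus replicate 1, the mouse with luteal, macrophage, theca and surface epithelium markers at the top of its group, 3 of 6 genes were called by edgeR, namely S100a6 at −2.43, Lgals1 at −2.08 and Anxa2 at −1.78.

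**Figure D2:**
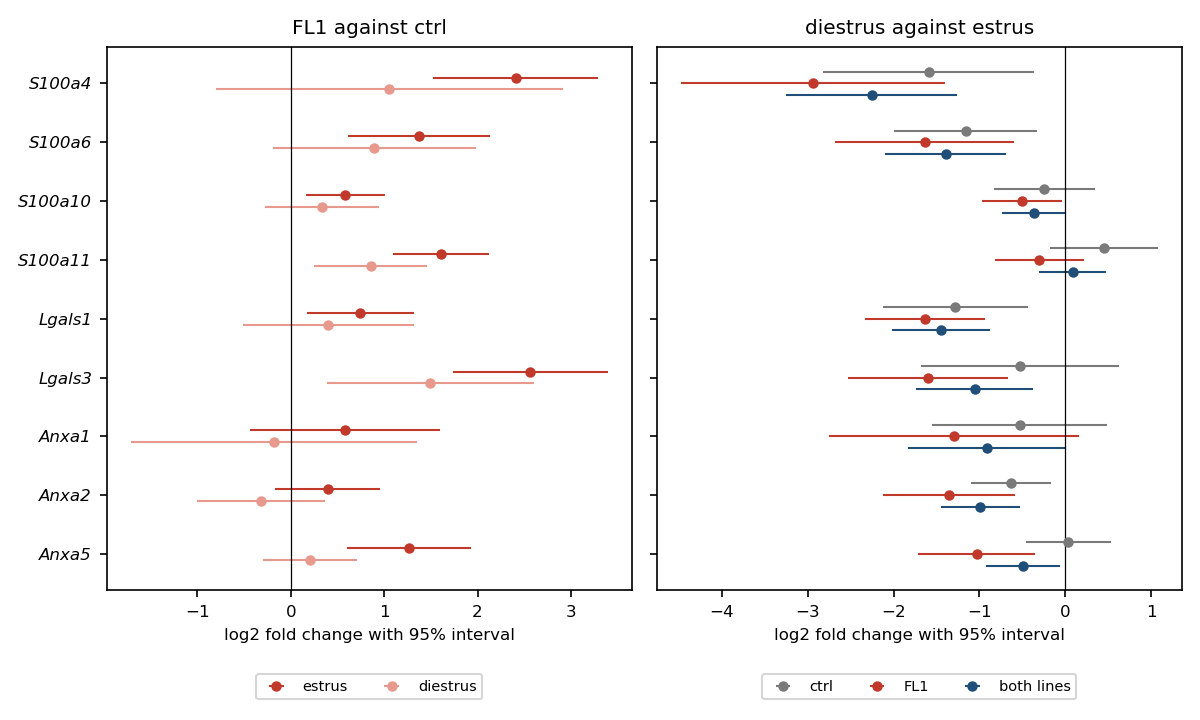
Log2 fold change of each gene with its 95% interval from edgeR, for FL1 against ctrl mice in each stage (left) and for diestrus against estrus in each line and over both lines (right). Line values of S100a4, S100a11 and Lgals3 are a description. All estrus line differences are above 0, and over both lines the stage values of S100a4, S100a6, Lgals1 and Anxa2 were called lower.

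S100a10 and Anxa2 are subunits of one complex, and their ratio was computed after the data had been seen. The S100a10 level divided by the Anxa2 level averaged 0.583 ± 0.124 (SD, n = 5) in ctrl and 0.731 ± 0.229 in FL1 mice in estrus, 0.752 ± 0.315 in ctrl and 1.37 ± 0.479 in FL1 mice in diestrus. On the log2 scale the ratio was 0.60 higher in diestrus over both lines (two-sided exact permutation test within lines, p = 0.0135, adjusted p = 0.0595 over 5 comparisons) and did not pass the adjustment. Without ctrl estrus replicate 5, ctrl diestrus replicate 1 or FL1 diestrus replicate 1 it passed, with adjusted p values from 0.0159 to 0.119 over all 20 exact permutation tests that left out 1 mouse. FL1 exceeded ctrl mice in diestrus by 0.89 (exact permutation p = 0.0476, adjusted p = 0.0794) and in estrus by 0.28 (exact permutation p = 0.333, adjusted p = 0.333). Diestrus exceeded estrus by 0.91 in FL1 mice (exact permutation p = 0.0238, adjusted p = 0.0595) and by 0.30 in ctrl mice (exact permutation p = 0.325, adjusted p = 0.333).

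Other genes of the 3 families were examined from a list. Of 12 other S100 genes 4 passed the filter on low counts in the fit over 20 mice, namely S100a1, S100a13, S100a14 and S100a16. S100a14 was at 0 in 5 of 5 ctrl mice in estrus and in 4 of 5 in diestrus, with FL1 means of 1.49 and 1.64 CPM. It thus passed mainly through FL1 mice, which favors a value above 0. All 4 were above 0 in FL1 mice over both stages, and 1 was called higher by edgeR (0.79% of all genes were called higher). This was S100a16, an S100 protein widespread in epithelia, with a log2 fold change of 1.11 (0.53 to 1.68) and an adjusted p of 0.0427. Its level was 16.7 ± 2.95 CPM (SD, n = 5) in ctrl and 36.4 ± 13.6 CPM in FL1 mice in estrus and 8.70 ± 3.76 CPM and 18.6 ± 7.48 CPM in diestrus. S100a13 had 0.80 (adjusted p = 0.162) and S100a1 0.47 (adjusted p = 0.478) in edgeR. S100a8 and S100a9, the calprotectin subunits of neutrophils and inflammatory monocytes, were singled out after their values had been seen and did not exceed 0.162 and 1.64 CPM in any mouse.

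Of 8 other galectin genes, counting the galectin-like Lgalsl and the galectin-3 binding protein Lgals3bp, 6 were tested over 20 mice and none was called by edgeR for line or stage (1.39% and 3.45% of all genes were). The Lgals3 ligand Lgals3bp was at 0.014 (−0.43 to 0.46) for the line and at 0.029 for the stage. Lgals9 had −0.84 (−1.88 to 0.19) and Lgals8 −0.59 (−1.10 to −0.09) in diestrus, with adjusted p values of 0.464 and 0.217 in edgeR, whereas Lgalsl had 0.54 (0.20 to 0.88, adjusted p = 0.0727). Of 9 other annexins 4 were tested, Anxa3, Anxa4, Anxa6 and Anxa7, and 1 was called lower in diestrus (1.72% of all genes were). None was called for the line, with Anxa7 at 0.56 (adjusted p = 0.126 in edgeR). Anxa6, the annexin with a doubled core, fell in diestrus by 0.74 on the log2 scale (adjusted p = 0.0297 in edgeR), from 92.2 ± 23.5 CPM to 61.1 ± 14.6 CPM in ctrl and from 108.8 ± 32.7 CPM to 58.8 ± 28.0 CPM in FL1 mice (SD, n = 5 each). Anxa3 and Anxa4 were at 0.096 and −0.082 for the stage.

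**Figure D3:**
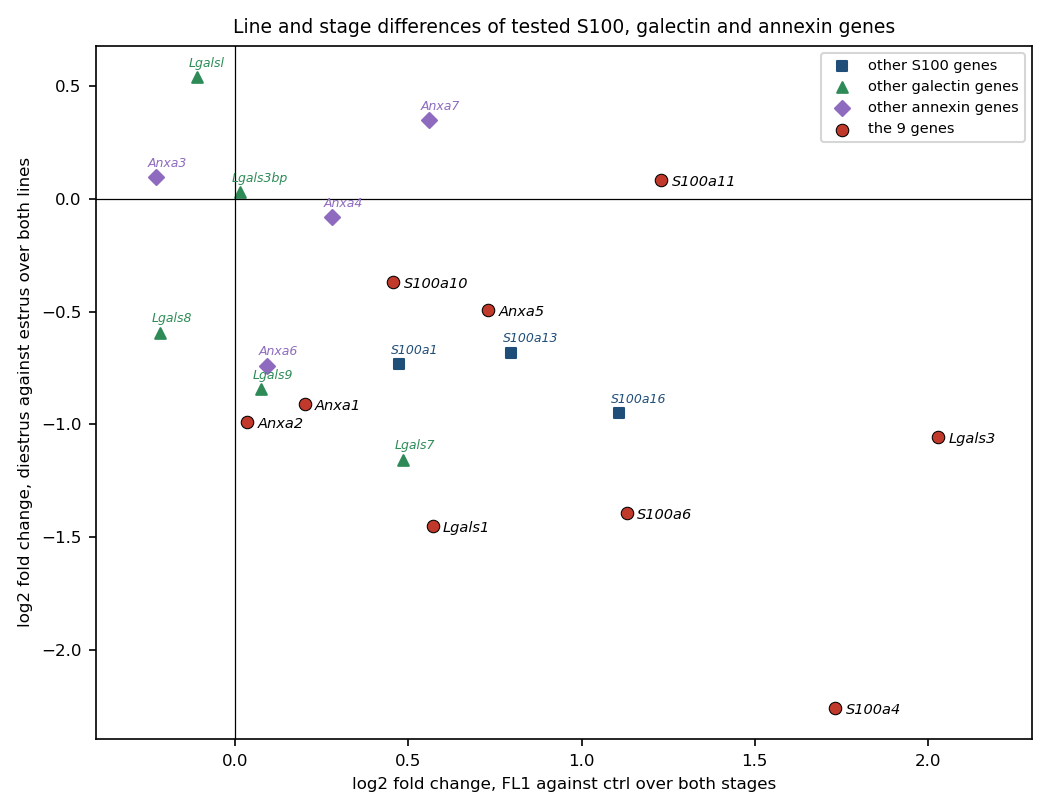
Log2 fold change between lines over both stages (horizontal) and between stages over both lines (vertical) for the 9 genes and for other family genes with a mean of at least 5 CPM, 1 point per gene. S100a16 and S100a13 lie in the same quadrant as 8 of the 9 genes, while S100a11 stays near 0 on the stage axis.

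Binding partners and receptors were counted from another list, of which 9 of 15 were tested. None was called for the line by edgeR (1.39% of all genes were), and 1 was called lower in diestrus (1.72% of all genes were). This was Capns1, the small subunit of the calpain proteases, which fell by 0.66 on the log2 scale (adjusted p = 0.0187 in edgeR). Median log2 fold changes of the 9 partners were 0.020 for the line over both stages and −0.18 for the stage. Cacybp, the calcyclin-binding protein, was at 0.010 (−0.24 to 0.26) for the line and −0.10 for the stage. Its line value averaged opposite differences in the stages. In estrus the mean of Cacybp was 114.2 CPM in FL1 and 151.3 CPM in ctrl mice, with overlap. In diestrus every FL1 mouse (at least 127.9 CPM) lay above every ctrl mouse (at most 113.5 CPM). Neither line difference was called by edgeR. The Anxa2 and S100a10 partner Ahnak was at 0.020 for the line and −0.17 for the stage. Plat, the tissue plasminogen activator that the Anxa2 and S100a10 complex can bind, was at −0.22 and −0.21.

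The 9 genes also varied together among mice of the same group. After the group means had been removed, all 36 pairs had a Pearson r above 0 over the 20 mice (median 0.42, range 0.13 to 0.75), and 11 pairs passed a permutation test within groups after BH adjustment over the 36. Both genes of a pair come from the same library, so they share its composition. S100a6 and Lgals3 had r = 0.75 (permutation p = 0.00557, adjusted p = 0.0288) and Spearman rho = 0.68 (permutation p = 0.0108, adjusted p = 0.0496), with r = 0.63 after leaving out the 2 mice farthest from the S100a6 median. Anxa2 and Anxa5 had r = 0.73 (permutation p = 0.00120, adjusted p = 0.0144) and rho = 0.65 (permutation p = 0.00388, adjusted p = 0.0496), with r = 0.52 without the 2 farthest. S100a11 and its binding partner Anxa1 had r = 0.70 (permutation p = 0.000300, adjusted p = 0.0108) and rho = 0.72 (permutation p = 0.000810, adjusted p = 0.0292), with r = 0.70 without the 2 farthest. The partners S100a10 and Anxa2 had r = 0.56 (permutation p = 0.00587, adjusted p = 0.0288) and rho = 0.58 (permutation p = 0.0141, adjusted p = 0.0496), with r = 0.69 without the 2 farthest.

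These calls rested on few mice. The count of 11 pairs fell to 1 without ctrl estrus replicate 1 or FL1 diestrus replicate 1, to 2 without ctrl estrus replicate 5 and to 3 without FL1 diestrus replicate 2, 3 or 5. Of the 9 genes S100a6 took part in most of the 11 pairs, namely 5, and Anxa2 in 4.

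Relations to marker genes were computed in the same way for the means of 4 marker lists, 36 relations in all. Of these 33 had a Pearson r above 0 and 1 passed the permutation test after adjustment. By Spearman rho 3 passed, which adds Lgals1 with theca and stroma (rho = 0.72, permutation p = 0.00214, adjusted p = 0.0380) and with luteal markers (rho = 0.72, permutation p = 0.00317, adjusted p = 0.0380). By Pearson r these 2 had adjusted permutation p values of 0.101 and 0.0546. S100a6 followed the luteal markers with r = 0.90 (permutation p = 0.000350, adjusted p = 0.0126) and rho = 0.89 (permutation p = 0.000480, adjusted p = 0.0173), and with r = 0.85 after leaving out the 2 farthest mice. The number of relations that passed by Pearson r was 2 without ctrl estrus replicate 4, ctrl diestrus replicate 3 or 4, FL1 estrus replicate 4 or FL1 diestrus replicate 3, 3 without ctrl diestrus replicate 5, 5 without FL1 estrus replicate 2 and 6 without ctrl diestrus replicate 2. The median r was 0.62 for luteal, 0.44 for theca and stroma, 0.33 for macrophage and 0.04 for endothelial markers. Lgals3, abundant in macrophages, had r = 0.46 with the macrophage markers (permutation p = 0.113, adjusted p = 0.215), rho = 0.31 (permutation p = 0.234, adjusted p = 0.323) and r = 0.15 without the 2 farthest mice.

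**Figure D4:**
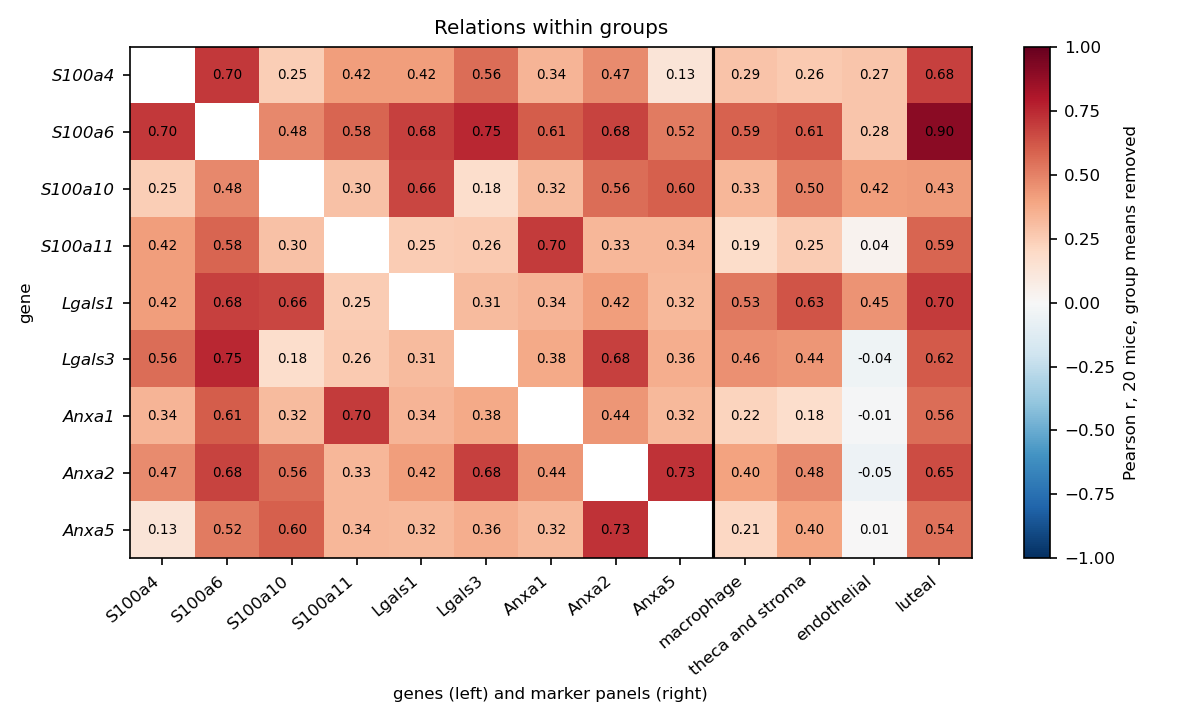
Pearson r between genes, and between genes and mean marker levels, over 20 mice after the means of the 4 groups were removed. All 36 gene pairs are above 0, and the highest value is 0.90 for S100a6 and the luteal markers.

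**Figure D5:**
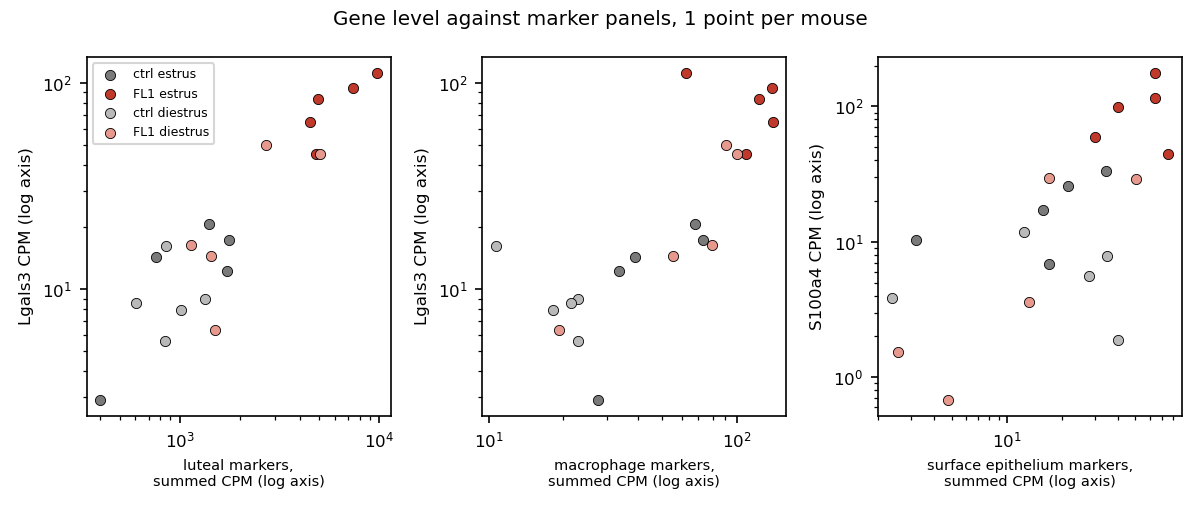
Level of Lgals3 against summed luteal and macrophage markers, and of S100a4 against summed surface epithelium markers, in CPM on log axes with 1 point per mouse. FL1 mice in estrus lie apart from ctrl mice in estrus on the luteal axis, at 4538 CPM or more.

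Over all genes with a mean of at least 10 CPM, those whose levels within groups were most like the mean of the 9 genes were Tmem147 (r = 0.86), Sfrp4 (0.86), Ptp4a3 (0.86), Gm2a (0.85) and Acsl4 (0.83), out of 9394 genes over 20 mice. Without the 2 mice farthest from the median the values were 0.81, 0.74, 0.75, 0.77 and 0.76. Sfrp4, a secreted Wnt antagonist, is one of the 7 luteal markers above. Gm2a encodes the ganglioside activator protein and Acsl4 an acyl-CoA ligase with a preference for arachidonate.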

How the data were processed

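GCs of 20 mice, 5 per line and stage, were analyzed. Raw counts per Ensembl gene were deposited, made by the authors from trimmed reads with the aligner STAR on GRCm38, and the counter and its strand setting are not given in the sources used here. Reads with several matches (23.2 to 32.8%) and other unassigned reads were kept apart by them and left out here, so that 48.9 to 58.4% of the reads counted on genes. Of 55487 identifiers 55227 were found in GENCODE M21. Samples were grouped by the labels. No libraries agreed within sampling noise.

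Counts were normalized by TMM and filtered by edgeR (minimum count 10, total 15, share 0.7) in R 4.3.3 with edgeR 4.0.16. Its quasi-likelihood F test, not robust, was run per comparison of 10 mice, or on 4 group means of all 20 mice, with BH adjustment and a threshold of 0.05. Intervals are 95% intervals of the fit. Relations used log2 CPM with a prior count of 2 and 100000 permutations (Python 3.11.15, NumPy 2.4.6, SciPy 1.17.1). Near-identical copies were searched with BLAST 2.17.0 over the last 500 nt of the transcripts (at least 90% identity over 100 nt). Alternatives were DESeq2 1.42.0, limma-voom (limma 3.58.1) with sample weights, RLE size factors, no filter, robust estimation, 1 fit of all samples, the replicate number as a block, counts pooled with copies, a prior count of 0.5, and each mouse left out. The fits were tested on simulated data. P-values measure the spread between mice.

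The 9 genes and the lists were chosen with earlier results of these data known. Named are the 9 genes, genes of the family and partner lists that were called or had a mean of at least 10 CPM, and the 5 genes most like the 9. The list genes S100a7l2 and Lgals6 were not found by symbol and are not analysed here. S100a5, S100a14, S100a8 and S100a9 were named outside this rule. Overlapping genes on the other strand exist for Anxa1 (1500015L24Rik) and Anxa2 (Gm16144).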

Additional observations from a re-analysis of the deposited data

Results flagged for a closer look

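In FL1 mice in estrus replicate 2 lay far from the other mice of its group for a pair of annexins. Its Anxa2 level was 849 CPM with the next mouse at 419.8 CPM, and its Anxa5 level was 643 CPM with the next at 275 CPM. Both gaps exceeded Dixon's limit for groups of 5. The rule was applied to 36 groups, and chance flags about 1 in 20.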

How the results depend on the processing

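The replicate numbers of the labels count different mice. Same-numbered mice had correlations of their deviations from the group means between −0.12 and 0.12, and at most 1 of 5 mice per comparison correlated best with its own number, so the numbers did not pair the samples. With the replicate block the number of called genes among the 9 was the same in each comparison, except that the log2 fold change of Anxa2 for the line over both stages became −0.059, while the calls over all genes in estrus went from 100 to 58. DESeq2 called 422 there.

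Of the 6 tested genes 0 were called for the line in estrus, against 1 with DESeq2, 1 with limma-voom, 2 without a filter, 1 with all samples in 1 fit and 0 to 1 with a mouse left out. For the line over both stages the count was 0, against 1 with DESeq2 and 2 without a filter. For the stage in ctrl mice it was 0, against 1 with DESeq2, 2 without a filter and 0 to 1 with a mouse left out. For the stage in FL1 mice it was 0, against 2 with DESeq2, 3 with limma-voom, 1 with RLE size factors, 4 without a filter and 0 to 3 with a mouse left out. The 4 calls for the stage over both lines became 3 with robust estimation, 5 with DESeq2, 5 without a filter and 4 to 5 with a mouse left out. The pairs past the threshold ranged from 1 to 14 and the relations to markers from 1 to 6 with a mouse left out. The cause of these changes was not tested.

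None of the values that changed sign had been called. With limma-voom the line difference was −0.074 for S100a4 and −0.013 for Lgals1 in diestrus and −0.19 for Anxa1 and −0.16 for Anxa2 over both stages, and the stage difference of S100a11 was −0.065. With a mouse left out the line difference in diestrus ran from −0.038 to 0.79 for Lgals1 and from −0.71 to 0.13 for Anxa1, that over both stages from −0.062 to 0.36 for Anxa1 and from −0.18 to 0.11 for Anxa2. The stage difference ran from −0.061 to 0.20 for Anxa5 in ctrl mice and from −0.023 to 0.15 for S100a11 over both lines, and the interaction of Lgals1 from −0.79 to 0.035. Of 1377 alternative values 1315 were counted as unchanged. For tested values this means the same direction and side of the threshold. For values without a test, as those of the chosen genes, it means a shift smaller than the SE of the main fit. With 5 mice per group and low counts of S100a4, Lgals3 and Anxa1 in diestrus, the intervals of these genes were wide.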
